A study of Homo sapiens with 8 samples.

Results

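Nuclear genes encode most subunits of the mitochondrial respiratory chain and of ATP synthase, and their nascent transcription was followed here in human fibroblasts during senescence and after loss of METTL3 or METTL14. The genes were taken by name as the protein-coding rows of the count table whose symbol starts with NDUFA, NDUFB, NDUFC, NDUFS or NDUFV and a number, with UQCR, with COX4 to COX8, or with ATP5. The rule found 84 of the 27945 genes of the table, of which 19475 were protein-coding. Complex I had 37 of them, complex III 9, complex IV 17 and ATP synthase 21. Nascent RNA was profiled by fastGRO-seq, a run-on assay that labels RNA made by engaged polymerases in isolated nuclei, in IMR90 primary human lung fibroblasts that express an inducible fusion of the estrogen receptor and oncogenic RAS (ER:RAS). Control cells were labelled WT, with no shRNA named. Senescence was induced with 4-OHT, used at 100 nM in the study, and the study's methods give day 6 as the harvest for checking senescence markers, with no day named for these libraries. Senescent cells carried shControl, shMETTL3 or shMETTL14 from a lentiviral vector. All cells grew in 2% oxygen. Each of the 4 groups had 2 libraries, described in the study as independent experiments. A single shRNA was used against each of METTL3 and METTL14, so an effect of that hairpin cannot be told apart from the loss of its target. The labels do not say whether control cells carried a vector, and if they did not, senescence and the shRNA vector cannot be told apart between control and shControl cells.

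The respiratory chain passes electrons from NADH and succinate to oxygen, and the proton gradient that it builds drives ATP synthase. Complex I takes electrons from NADH, complex III passes them from ubiquinol to cytochrome c, and complex IV hands them to oxygen. A few core subunits come from mitochondrial DNA and were not analysed here. The nuclear genes share regulators known as nuclear respiratory factors, ETS proteins of the GABP type and YY1. METTL3 and METTL14 form the core of the complex that writes N6-methyladenosine into RNA, and the study asked whether the 2 proteins act on transcription in senescent cells.

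The promoters of 5 members that carry the results below are printed first. RefSeq promoter windows on GRCh38.p14, from 250 bases before to 50 bases after the start of each gene, matched 67 of the 84 members, 64 by symbol and 3 by a synonym. Exact matches on both strands were sought for the NRF1 motif GCATGCGC, the ETS motif CCGGAAG, the YY1 motif ATGGCGGC, the SP motif GGGCGG and the TATA motif TATAAA. Matches are in capitals. UQCRC1 (chr3:48609597-48609896, minus strand) changed in 3 of the 4 comparisons, and UQCRH (chr1:46303448-46303747, plus strand) had the lowest adjusted p of any member in senescence. ATP5PO (chr21:33915755-33916054, minus strand) and COX5A (chr15:74938024-74938323, minus strand) had large differences between the 2 knockdowns. NDUFS4 (chr5:53560389-53560688, plus strand) was higher in each of them, with limits given below.
UQCRC1: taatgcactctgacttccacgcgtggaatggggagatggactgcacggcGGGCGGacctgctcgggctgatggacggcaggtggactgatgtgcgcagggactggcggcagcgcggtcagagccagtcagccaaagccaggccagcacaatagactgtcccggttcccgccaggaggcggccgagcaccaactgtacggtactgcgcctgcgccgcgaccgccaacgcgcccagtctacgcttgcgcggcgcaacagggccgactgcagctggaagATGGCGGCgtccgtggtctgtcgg
UQCRH: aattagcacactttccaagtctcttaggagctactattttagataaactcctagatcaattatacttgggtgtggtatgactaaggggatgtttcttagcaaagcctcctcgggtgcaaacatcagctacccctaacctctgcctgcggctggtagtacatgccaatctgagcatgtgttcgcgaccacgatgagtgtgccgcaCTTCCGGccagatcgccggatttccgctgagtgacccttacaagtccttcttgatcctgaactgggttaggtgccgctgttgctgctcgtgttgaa
ATP5PO: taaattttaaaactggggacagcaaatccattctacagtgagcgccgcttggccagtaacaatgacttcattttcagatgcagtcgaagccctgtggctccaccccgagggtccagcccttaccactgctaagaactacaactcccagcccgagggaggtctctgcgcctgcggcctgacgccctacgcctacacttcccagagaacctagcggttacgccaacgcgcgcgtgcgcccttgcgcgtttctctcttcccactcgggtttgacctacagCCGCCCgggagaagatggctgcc
COX5A: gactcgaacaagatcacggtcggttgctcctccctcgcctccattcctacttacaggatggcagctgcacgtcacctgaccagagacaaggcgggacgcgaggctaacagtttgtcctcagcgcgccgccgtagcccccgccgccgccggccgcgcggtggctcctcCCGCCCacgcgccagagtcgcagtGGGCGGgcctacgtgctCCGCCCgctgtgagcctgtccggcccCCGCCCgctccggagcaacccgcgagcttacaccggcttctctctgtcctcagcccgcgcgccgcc
NDUFS4: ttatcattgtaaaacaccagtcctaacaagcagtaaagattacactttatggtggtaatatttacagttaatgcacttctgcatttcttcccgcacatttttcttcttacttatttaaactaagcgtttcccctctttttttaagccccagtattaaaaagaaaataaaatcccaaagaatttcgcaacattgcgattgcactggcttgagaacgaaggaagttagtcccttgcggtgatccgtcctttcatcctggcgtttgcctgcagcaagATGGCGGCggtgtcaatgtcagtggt
COX5A held 4 SP matches within 83 bases before its start. UQCRH held an ETS match on the opposite strand 46 bases before its start. UQCRC1 and NDUFS4 both held the YY1 match just past the start, from base 27 and base 25 respectively, and UQCRC1 also held an SP match. ATP5PO held an SP match after its start and no other.

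Across the members, 18 of 67 windows (26.9%) held the ETS motif, against 10.3% of all 35116 windows. The YY1 motif was in 11 member windows (16.4%, against 3.0%) and the NRF1 motif in 9 (13.4%, against 3.1%). The SP motif was in 41 (61.2%, against 45.0%) and the TATA motif in 6 (9.0%, against 11.5%). Matches of different motifs overlapped in 1 member window. Of the 21 members that were higher after METTL14 than after METTL3 knockdown, 18 had a window, of which 7 held the ETS motif, 4 the YY1 motif and 1 the NRF1 motif. Of the other 45 tested members with a window, 11, 7 and 8 did. A match describes letters only, not a bound site.

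Library totals ranged from 14897360 to 20306299 counts, but 21 ribosomal RNA rows took 86.2% to 92.5% of them and left 1513930 to 2048475 counts on other genes. The members held 4171 to 5613 counts per library. Normalised counts below are counts scaled by the TMM method of edgeR to the mean effective library, with TMM factors between 0.747 and 1.27. The test was edgeR's quasi-likelihood test on all 8 libraries, with Benjamini-Hochberg adjustment over 12844 genes and a threshold of 0.05. Of the 84 members 76 were tested. The file header names a strand setting for the counting, but strands do not appear to be separated in the counts, since in 313 of 315 nested gene pairs on opposite strands the outer gene was not lower than the inner gene in any library. For this reason 14 members that overlap another gene by at least 5% of their span are uncertain. METTL3 had 77 and 47 counts in shControl and 16 and 19 in shMETTL3 cells, a log2 fold change of -2.04 ± 0.31 (SE, adjusted p = 1.79e-05). METTL14 had 24 and 28 counts in shControl and 18 and 14 in shMETTL14 cells, and its log2 fold change of -0.86 ± 0.34 did not pass (adjusted p = 0.0763). These are counts of nascent RNA, not of mature mRNA or protein. The paper cites a western blot for the knockdown of METTL3 and METTL14. The epithelial, endothelial and blood markers EPCAM, CDH1, PECAM1, CDH5 and PTPRC had at most 4 counts in any library. Of 7 fibroblast markers, 1 rose and 5 fell in senescence, 1 rose and 1 fell after METTL3 knockdown, and 6 fell after METTL14 knockdown, while 1 was higher and 5 lower in shMETTL14 than in shMETTL3 cells. All 4 senescence and RAS markers rose in senescence, 1 rose and 2 fell after each knockdown, and 3 were higher and 1 lower in shMETTL14 than in shMETTL3 cells. Of 4 proliferation markers, 3 fell in senescence, 3 after METTL3 and 4 after METTL14 knockdown. The part of these shifts in the results was not tested. In such bulk data, fewer cells of a type and less RNA per cell cannot be told apart.

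Most members had few counts, and they are short genes, with a median span of 8335 bases against 23234 for all protein-coding genes. Their level per kilobase was not compared with that of all genes. Per kilobase, ATP5F1B, the catalytic beta subunit of ATP synthase, stood first with a mean of 43.0 normalised counts per kilobase over the 8 libraries. ATP5IF1, the natural inhibitor of ATP synthase, followed at 24.7 and COX8A, a small complex IV subunit, at 24.6, a difference below their spread between groups. In control cells alone ATP5IF1 was at 13.7, below COX8A at 21.6. Over the 8 libraries UQCRQ at 21.2 and ATP5F1A, the alpha subunit, at 20.7 came next. The lowest tested members were NDUFA12 at 0.776, ATP5S, which is no subunit but is counted by its name with ATP synthase here, at 0.580, and NDUFA5 at 0.416 normalised counts per kilobase. Introns were counted too.

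Several isoform partners had few or no counts. COX6A2, the muscle isoform of COX6A, had 0 counts in every library, a number that allows up to 3 counts per library. COX8C had 1 count and COX7B2 2 counts over the 8 libraries. COX4I2, the lung and hypoxia isoform of COX4, had 5 counts in shMETTL3 replicate 2, 1 in shMETTL14 replicate 2 and 0 elsewhere. COX6B2, a testis isoform, had at most 3 counts and COX7A1, the muscle isoform of COX7A, had 3 to 6. The copies UQCRHL and ATP5MGL had at most 5 and 1. NDUFA4L2, a paralog of NDUFA4 that responds to hypoxia and is no member, had at most 3. Their widely expressed partners carried the counts. COX4I1 had 97 to 147, COX6A1 26 to 44, COX6B1 18 to 51, COX7A2 40 to 85 and UQCRH 61 to 125. Low counts can also come from a short span, as UQCRHL spans 537 bases and COX7A1 1947. Per kilobase over the 8 libraries, UQCRHL was at 4.29 and COX7A1 at 2.42 normalised counts. COX6B1 was at 3.66, COX7A2 at 9.32 and UQCRH at 7.42.

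Summed over each complex, the subunit genes had their highest mean in shMETTL14 cells under TMM scaling, while with total library size as the scale shMETTL3 cells were highest for complex I. The shMETTL3 cells lay below shControl cells under TMM scaling but above them with total library size. Under TMM scaling control cells had the lowest mean for complexes I, III and IV, and shMETTL3 and control cells were nearly level for ATP synthase, whereas with total library size shControl cells were lowest for all 4. With counts outside ribosomal RNA as the scale, a choice made after seeing the data, shMETTL3 cells were lowest for all 4. ATP synthase genes summed to 1416 and 1385 normalised counts in control, 1773 and 1851 in shControl, 1436 and 1360 in shMETTL3, and 2025 and 1910 in shMETTL14 cells. The shMETTL3 libraries came close to the control libraries here, and both shMETTL14 libraries lay above both shControl libraries. Complex I genes summed to 1617 and 1624 in control, 1854 and 1892 in shControl, 1744 and 1776 in shMETTL3, and 2130 and 1972 in shMETTL14 cells. Complex III genes summed to 459.6 and 559.9 in control, 684.5 and 693.4 in shControl, 570.5 and 509.9 in shMETTL3, and 738.6 and 688.7 in shMETTL14 cells. The shMETTL14 and shControl libraries overlapped for complex III. Complex IV genes summed to 516.3 and 512.9 in control, 619.5 and 670.0 in shControl, 559.2 and 512.7 in shMETTL3, and 716.6 and 666.6 in shMETTL14 cells, where shMETTL3 overlapped control and shMETTL14 overlapped shControl. Over all 84 members the sum was 1.24-fold higher in shControl than in control cells. It was 0.844 of shControl in shMETTL3 cells, 1.08 of it in shMETTL14 cells, and 1.28-fold higher in shMETTL14 than in shMETTL3 cells. With the total library as the scale, ribosomal RNA included, the first ratio was 0.880 and the second 1.29, so both turned, and the third was 1.38 and the last 1.07.

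**Figure D1:**
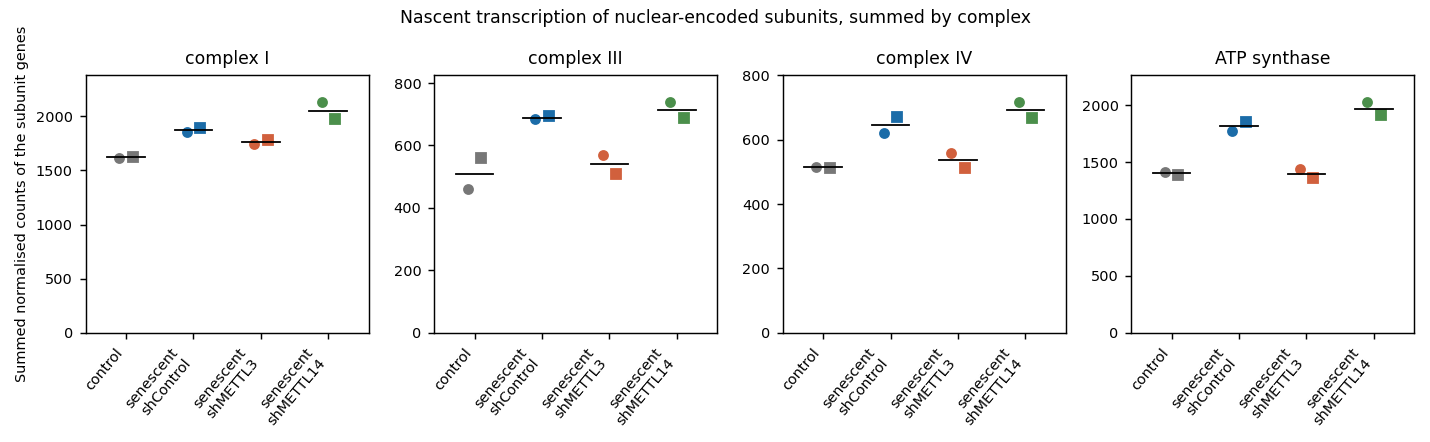
Summed normalised counts (y axis) of the subunit genes of complex I, complex III, complex IV and ATP synthase in each library of the 4 groups (x axis). Circles are replicate 1, squares replicate 2 and bars the mean of 2. ATP synthase sums were 1416 and 1385 in control, 1773 and 1851 in shControl cells and 1436 and 1360 in shMETTL3 cells, under TMM scaling only.

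Senescence was compared as shControl against control cells. Of the 76 tested members 7 rose and none fell, or 9.21% and 0%, while 13.3% of all genes tested rose and 13.3% fell, 26.6% in all. The share that rose after adjustment was below that of genes in general. At an unadjusted p below 0.05, 17 members (22.4%) were higher and 0 lower by edgeR, against 18.1% and 19.0% of all genes, and DESeq2 called 4 higher and 0 lower, with 16.7% of all genes called. The normalised counts of the 2 groups did not overlap, with senescent cells above, for 42 members, against 31.5% of all genes, and with senescent cells below for 6, against 34.5%. The members' median log2 fold change was 0.27 and that of all genes tested -0.03.

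UQCRH, the hinge protein of complex III, had 62.9 and 53.1 normalised counts in control and 123.0 and 115.7 in shControl cells. The groups lay far apart, and its log2 fold change was 1.04 ± 0.20 (adjusted p = 0.000191). ATP5IF1 had 27.5 and 27.9 normalised counts in control and 55.6 and 61.2 in shControl cells, a log2 fold change of 1.08 ± 0.26 (adjusted p = 0.00259). Its level in shMETTL3 (56.4 and 57.9) and shMETTL14 cells (51.0 and 61.1) overlapped the shControl libraries. ATP5F1B (chromosome 12, 57031959 to 57039852 on hg19, minus strand) had 272.8 and 242.1 in control and 404.3 and 409.6 in shControl cells. Both senescent libraries lay well above, with a log2 fold change of 0.66 ± 0.14 (adjusted p = 0.000602). ATP5MC3, which encodes the proton-carrying c subunit of the membrane rotor, went from 69.1 and 47.0 to 101.7 and 99.1 normalised counts. Its log2 fold change was 0.79 ± 0.22 (adjusted p = 0.00888), and the control libraries lay further apart than the shControl libraries. The other 3 that rose were NDUFV2, a core iron-sulfur subunit of complex I (log2 fold change 0.67 ± 0.17), UQCRC1, a core protein of complex III (0.58 ± 0.18), and NDUFB9, an accessory subunit of complex I (0.91 ± 0.26). NDUFV2 overlaps its antisense gene over 41.2% of its span, so its reads cannot be assigned to a strand. UQCRH, ATP5IF1 and ATP5F1B kept their calls whichever library was left out. All 7 lost their calls with total library size as the scale, which gave 0 higher and 8 lower. That scale called 44.9% of all genes, with their median at -0.53. The count of members that rose fell to 4 without shControl replicate 1, where 13.4% of all genes were called, and was 12 or 13 without 1 or the other shMETTL3 library, where 31.4% or 31.9% were. Leaving out a shMETTL3 library also changed the number of genes tested, to 13618 or 13459. Fitted on the 4 libraries alone, 17 rose, with 37% of all genes called.

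METTL3 knockdown was compared as shMETTL3 against shControl cells. Of the 76 tested members 6 fell and 2 rose, or 7.89% and 2.63%, against 11.2% and 12.3% of all genes and 23.4% in all. The share that fell was below the share of genes in general. Normalised counts in shMETTL3 cells lay below both shControl libraries for 39 members, against 30.6% of all genes, and above for 5, against 27.8%. The median log2 fold change of the members was -0.34 and that of all genes -0.03, and without shMETTL3 replicate 2 the members' median was -0.22. These values share the shControl libraries with the senescence and METTL14 comparisons, so a high value there would raise one and lower the others. With an offset for gene length the median was -0.09, with 3 members higher and 2 lower and 19.5% of all genes called. Total library size as the scale gave 16 higher and 0 lower, with 43.9% of all genes called and their median at 0.58.

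ATP5F1B fell from 404.3 and 409.6 normalised counts in shControl to 241.1 and 224.1 in shMETTL3 cells, close to the control libraries (log2 fold change -0.81 ± 0.14, adjusted p = 0.000115). It was the member with the lowest p in this comparison, and leaving out any library kept its call. UQCRC1 fell from 176.2 and 163.6 to 122.1 and 80.7 (-0.75 ± 0.19, adjusted p = 0.00478), where the shMETTL3 libraries differed from each other by nearly as much as the higher of them from shControl. ATP5F1E, the epsilon subunit of the catalytic head, fell from 67.4 and 70.1 to 41.0 and 36.1 (-0.84 ± 0.24, adjusted p = 0.0125), but the whole gene lies within the readthrough gene SLMO2-ATP5E. ATP5MG, a membrane subunit of ATP synthase with a log2 fold change of -0.71 ± 0.25, lies wholly within a gene on the other strand. ATP5MC3 (-0.65 ± 0.22) and COX7C, a small complex IV subunit (-0.67 ± 0.25), were the others that fell. Their adjusted p were 0.0355 and 0.0482, and COX7C lost its call whichever library was left out and kept it in 3 of 20 alternatives.

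NDUFS4, an accessory subunit of complex I known from Leigh syndrome, went the other way. It had 147.8 and 139.1 normalised counts in shControl and 174.4 and 223.1 in shMETTL3 cells (log2 fold change 0.47 ± 0.16, adjusted p = 0.0342). NDUFS4 spans 122708 bases, and this call was lost with the gene length offset and kept in 9 of 20 alternatives. The remaining rise was ATP5MF, a membrane subunit, at 0.68 ± 0.25 (adjusted p = 0.0467), which lies within the readthrough gene ATP5MF-PTCD1. COX8A was at 48.2 in 1 shMETTL3 library and 9.5 in the other, with shControl at 52.0 and 57.9, and did not pass (adjusted p = 0.0705). No member rose without either control library, either shControl library or shMETTL3 replicate 2, as by DESeq2, where 2 fell (ATP5F1B and UQCRC1). Without shMETTL3 replicate 2 only 1 member fell, with 16.1% of all genes called, without shMETTL3 replicate 1 there were 13, with 29.3%, and without 1 or the other shMETTL14 library 4, with 20.8% or 20.6%. Without 1 or the other shControl library 2 fell, with 12.7% or 10.9% of all genes called. ATP5F1B alone kept its call in all these fits. Without shMETTL3 replicate 2 the log2 fold change of UQCRC1 was -0.50, of ATP5MC3 -0.42, of ATP5MG -0.44 and of NDUFS4 0.26, and none passed. At this depth the 95% interval of the log2 fold change lay within -1 to 1 for 43 of 76 members and within -0.5 to 0.5 for 4.

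METTL14 knockdown was compared as shMETTL14 against shControl cells. Here 7 of 76 members rose and 2 fell, or 9.21% and 2.63%, against 9.15% and 12% of all genes and 21.2% in all. The share that rose was close to that of all genes. Counts in shMETTL14 cells lay above both shControl libraries for 29 members, against 32.2% of all genes, and below for 11, against 32.1%. The median log2 fold change was 0.10, and that of all genes 0.00 after rounding. The members' median was 0.04 without shControl replicate 1, 0.16 without shControl replicate 2, 0.03 without shMETTL14 replicate 1 and 0.02 with an offset for gene length.

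NDUFS4 rose to 218.9 and 229.6 normalised counts in shMETTL14 cells (log2 fold change 0.64 ± 0.16, adjusted p = 0.00459). NDUFA9, a complex I subunit that lies near the junction of its membrane and matrix arms, had 41.4 and 32.3 in shControl and 77.0 and 62.1 in shMETTL14 cells (0.92 ± 0.26, adjusted p = 0.0119). It was at 42.1 and 34.2 in shMETTL3 cells, so the shMETTL14 libraries stood above all the others. NDUFA10, also of complex I, rose from 125.3 and 132.4 to 191.9 and 180.1 (0.53 ± 0.17, adjusted p = 0.0241), and NDUFB9 from 54.4 and 61.2 to 107.9 and 81.1 (0.71 ± 0.23, adjusted p = 0.026, and 0.47 without shMETTL14 replicate 1, which did not pass). UQCRQ, a small subunit of complex III, rose by 0.78 ± 0.25 with adjusted p = 0.0289. ATP5MF (0.94 ± 0.24) and ATP5MF-PTCD1 (0.78 ± 0.17) rose too, and share their reads. ATP5MF-PTCD1 overlaps ATP5MF, CPSF4, BUD31 and PTCD1 over 98.2% of its span. Genes on the opposite strand cover 43.1% of it, so its reads cannot be assigned to an ATP synthase subunit. UQCRB, which binds near the quinone site of complex III, fell by 0.62 ± 0.21 on the log2 scale (adjusted p = 0.0386). The members that rose numbered 3 or 2 without 1 or the other shControl library and 2 without shMETTL14 replicate 1, fits that called 10.9%, 10.1% and 9.34% of all genes. None fell without either shControl library or shMETTL14 replicate 2, nor by DESeq2. ATP5MF-PTCD1 alone kept its call whichever library was left out, and NDUFS4 lost it without shControl replicate 2. With members of under 5% overlap alone, 4 rose and 2 fell. Total library size as the scale gave 19 higher and 0 lower, with 30.1% of all genes called and their median at 0.35.

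The knockdowns were also set against each other. Of the 76 members 21 were higher in shMETTL14 than in shMETTL3 cells and 2 lower, or 27.6% and 2.63%, against 16.5% and 18.7% of all genes and 35.2% in all. The members' share in the higher direction was above that of all genes, and their share in the lower direction was below it. Normalised counts lay apart with shMETTL14 above for 48 members, against 33.5% of all genes, and with shMETTL14 below for 6, against 32.8%. The median log2 difference was 0.48 for members and 0.01 for all genes. Members with under 5% overlap gave 17 higher and 1 lower of 64, with a median of 0.50. ATP synthase had 8 of 20 higher, complex IV 4 of 11, complex III 3 of 8 and complex I 6 of 37, where both lower calls also lay. Each of the 4 groups of genes had a median above 0, from 0.42 for complex I to 0.55 for complex III.

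ATP5F1B had 241.1 and 224.1 normalised counts in shMETTL3 and 488.8 and 429.6 in shMETTL14 cells, a log2 difference of 0.98 ± 0.14 (adjusted p = 3.87e-06). ATP5PO, the oligomycin sensitivity protein that ties the stator to the catalytic head, had 47.2 and 29.4 against 84.0 and 76.9, a log2 difference of 1.08 ± 0.25 (adjusted p = 0.00119). Of the 23, ATP5F1B, ATP5PO and ATP5MF-PTCD1 alone kept their calls whichever library was left out. ATP5MF-PTCD1 overlaps other genes over 98.2% of its span, so its call may not come from a subunit gene. COX5A lost its call without shMETTL14 replicate 1. COX5A, a nuclear subunit of complex IV, had 39.0 and 35.1 against 82.0 and 68.4 (1.02 ± 0.26, adjusted p = 0.00358). For ATP5F1B, ATP5PO and COX5A the groups lay well apart. ATP5MC2, another gene for the c subunit, differed by 0.91 ± 0.24 and UQCR11 of complex III by 0.88 ± 0.25. NDUFB9 was higher by 0.92 ± 0.23 and NDUFA9 by 0.87 ± 0.25. COX8A was higher by 1.20 ± 0.37, a value that rests on shMETTL3 replicate 2, without which it was 0.45 and did not pass, nor did it pass without shMETTL14 replicate 1. The lower members were NDUFV2 (-0.47 ± 0.16) and NDUFS1, the large iron-sulfur subunit of complex I (-0.43 ± 0.17). NDUFS1 had 147.7 and 159.5 normalised counts in shMETTL3 and 116.9 and 110.6 in shMETTL14 cells (adjusted p = 0.0427), but kept its call in 6 of 20 alternatives.

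These counts depended on the fit. Without shMETTL14 replicate 1, 4 members were higher and 0 lower with 17.7% of all genes called, and without shMETTL3 replicate 2 the numbers were 14 and 0 with 25.6%. Without shMETTL14 replicate 2 they were 17 and 0 with 27% called, and without shMETTL3 replicate 1 they were 23 and 4 with 39.7%. DESeq2 called 6 higher and 0 lower, and 22.7% of all genes. An offset for gene length gave 9 higher and 6 lower with a median of 0.12 and 31.5% of all genes called. Total library size as the scale gave 5 and 5, with 36.3% of all genes called and their median at -0.25. Less the median of all genes, which takes out a shift of scale by construction, the members' median under TMM was 0.47 in this comparison, 0.30 in senescence, -0.31 after METTL3 and 0.10 after METTL14 knockdown. The part of gene length in the differences was not tested beyond this offset.

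**Figure D2:**
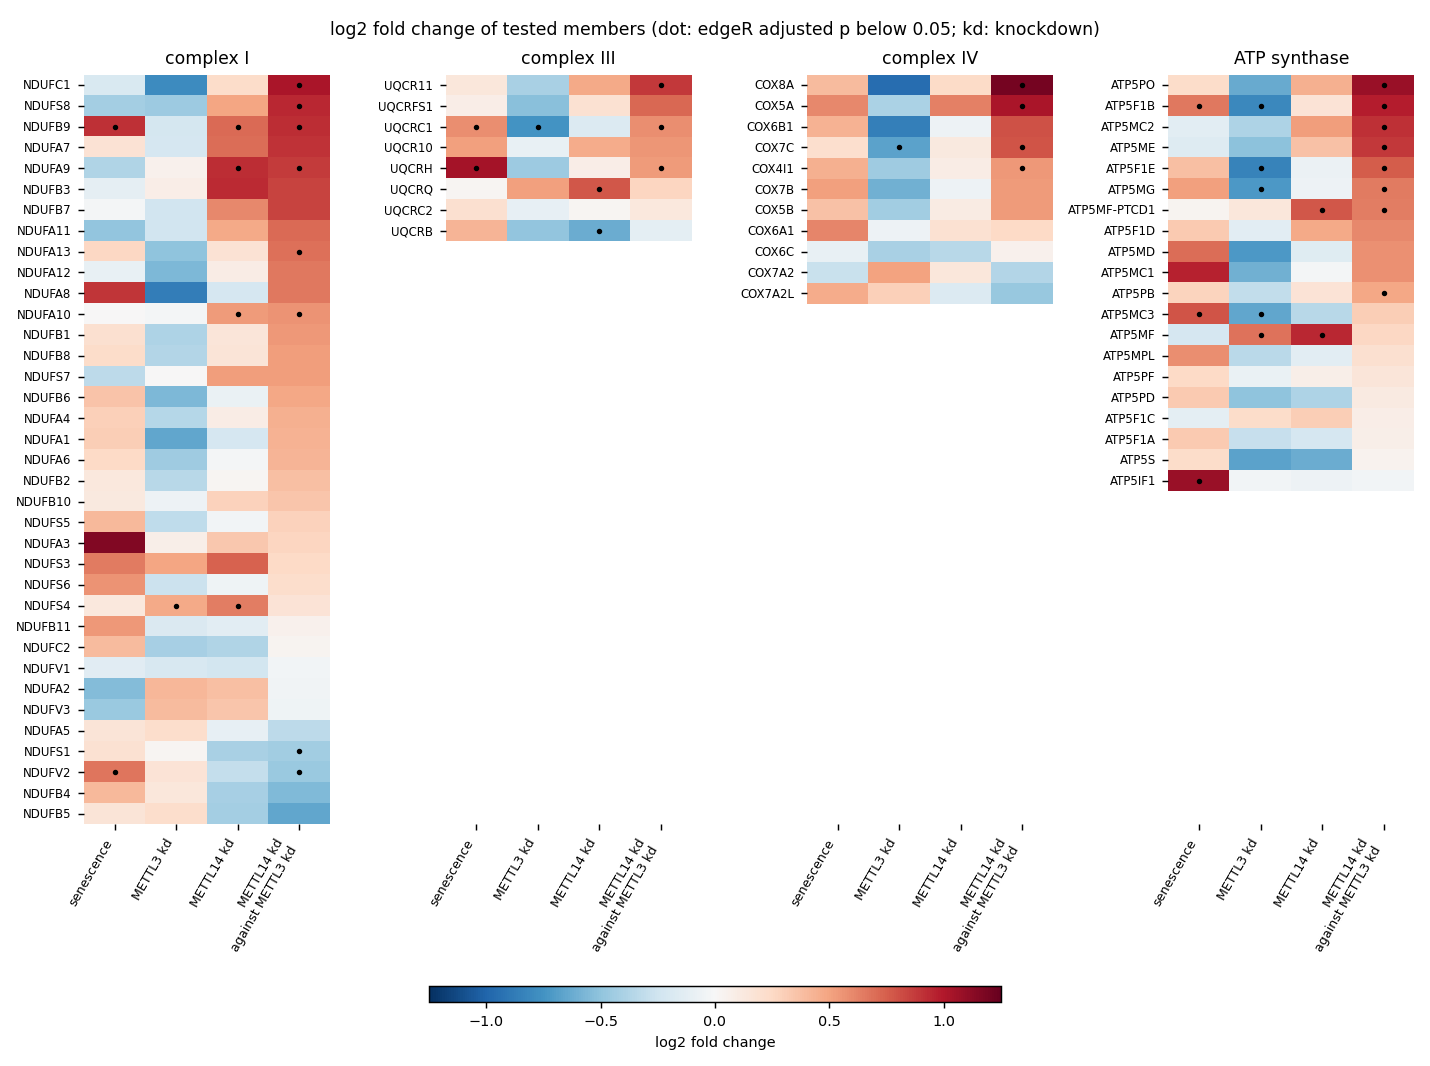
log2 fold change (colour) of tested members in the 4 comparisons (columns), by complex and ordered by the difference between the knockdowns. Dots mark edgeR adjusted p below 0.05. Of the dots in the last column 21 are in the red and 2 in the blue direction under TMM scaling, and 9 and 6 with a gene length offset.

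**Figure D3:**
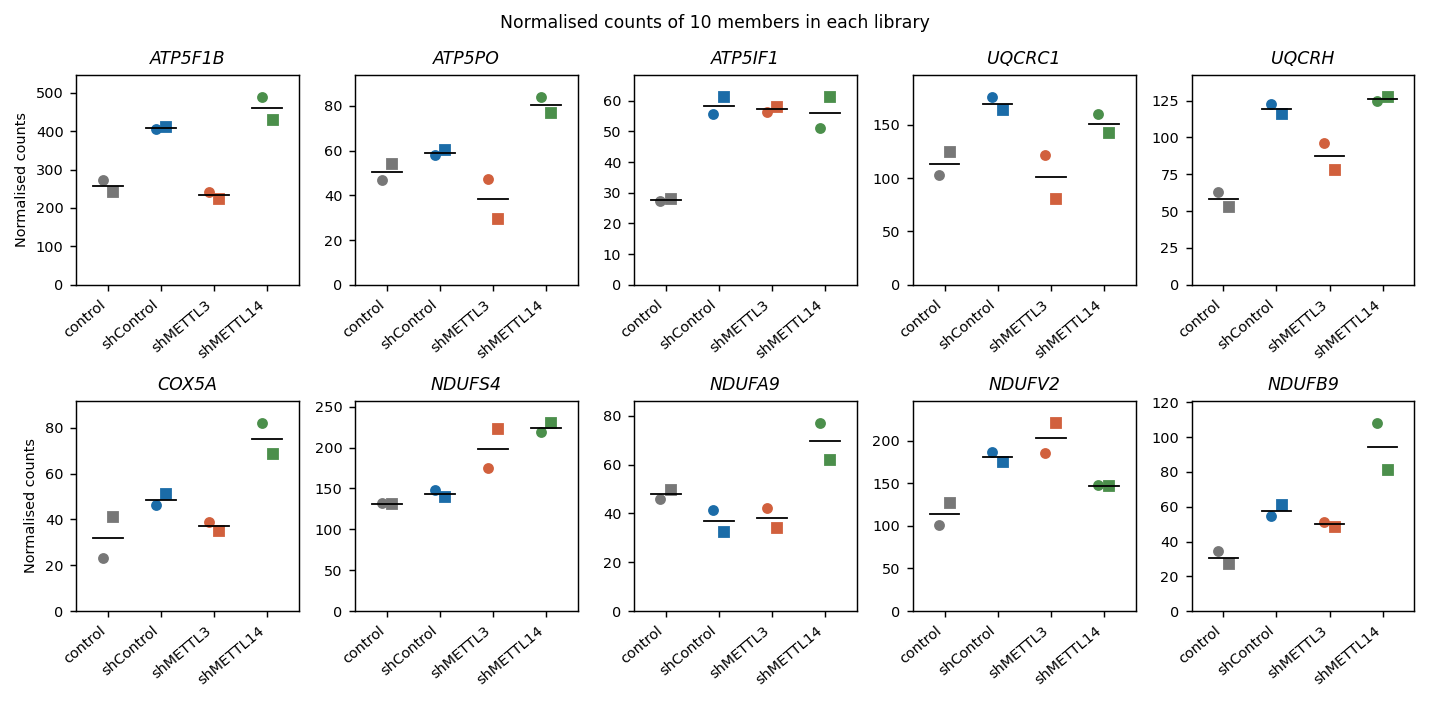
Normalised counts (y axis, from 0) of 10 members in each library of the 4 groups (x axis). Circles are replicate 1, squares replicate 2 and bars the mean of 2. ATP5F1B lies at 404.3 and 409.6 in shControl, 241.1 and 224.1 in shMETTL3 and 488.8 and 429.6 in shMETTL14 cells, while NDUFS4 is above shControl in both knockdowns.

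The core subunits of complexes I and III, the largest nuclear subunits of complex IV and the catalytic head of ATP synthase were followed one by one. Of the 7 nuclear core subunits of complex I, NDUFV2 alone passed in senescence, and with METTL3 knocked down 0 passed by edgeR or by DESeq2 (1 by edgeR with p unadjusted). Between the knockdowns NDUFV2 and NDUFS1 were lower in shMETTL14 cells, with the limit on NDUFS1 given above. NDUFS8, an iron-sulfur subunit, was higher in shMETTL14 cells (24.6 and 13.3 against 41.0 and 31.6 normalised counts, log2 difference 0.95 ± 0.35, adjusted p = 0.0343), but without shMETTL3 replicate 2 the difference was 0.58 and did not pass, and without replicate 1 it was 1.46. NDUFV1, which holds the NADH site, lay between 36.1 and 55.8 normalised counts in all 8 libraries and passed in no comparison. NDUFS3 (15.1 to 51.0) and NDUFS7 (10.4 to 28.4), 2 further core subunits, passed in none either. In complex III, UQCRC2 lay between 108.9 and 148.9 and UQCRFS1, the Rieske iron-sulfur protein, between 21.5 and 53.0, and neither passed in any comparison, while their partner UQCRC1 passed in 3. In complex IV, COX4I1 had 102.6 and 92.1 normalised counts in shMETTL3 and 146.9 and 136.9 in shMETTL14 cells and passed there (0.55 ± 0.18, adjusted p = 0.0182), as did COX5A. COX5B, at 32.8 and 35.1 against 47.0 and 51.6, had a log2 difference of 0.53 ± 0.27 that did not pass.

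Among the catalytic subunits of ATP synthase the partners differed in range. ATP5F1B spanned 224.1 to 488.8 normalised counts, but ATP5F1A, which pairs with it in the same ring, spanned 252.5 to 348.8 and ATP5F1C, the gamma subunit of the central stalk, 87.9 to 124.3. ATP5F1A had log2 fold changes of 0.33 ± 0.14 in senescence and -0.28 ± 0.14 after METTL3 knockdown, and neither these nor any change of ATP5F1C passed. The edgeR adjusted p of ATP5F1A were 0.0773 and 0.14. Whether the beta subunit changed more than the alpha subunit was not tested.

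The genes for the c subunit, ATP5MC1, ATP5MC2 and ATP5MC3, encode the same mature protein. Their levels per kilobase in shControl cells were 7.75 ± 2.82, 4.42 ± 0.40 and 18.2 ± 0.34 normalised counts per kilobase (SD, n = 2). ATP5MC3 rose in senescence and ATP5MC2 was at 57.6 and 54.0 in control and 54.4 and 47.9 normalised counts in shControl cells. ATP5MC1 passed in no comparison and lies wholly within a gene on the other strand. Among the other isoform groups, COX7A2 and COX7A2L had log2 differences of -0.36 ± 0.24 and -0.47 ± 0.22 between the knockdowns, and COX6A1 and COX6B1 0.25 ± 0.28 and 0.79 ± 0.32, none of which passed. NDUFA4, which is now placed in complex IV but is counted by its name among the complex I genes here, lay between 34.0 and 68.4 normalised counts and passed in no comparison.

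Other nuclear-encoded gene families were counted alongside. Of 75 tested mitochondrial ribosomal protein genes, 3 rose in senescence, 5 fell after METTL3 knockdown and 8 rose after METTL14 knockdown, and 18 were higher and 1 lower in shMETTL14 than in shMETTL3 cells. Of 36 tested proteasome genes, 10 rose in senescence (27.8%) and 12 fell after METTL3 knockdown (33.3%). After METTL14 knockdown 4 fell (11.1%), and 7 were higher (19.4%) and 2 lower (5.56%) between the knockdowns. Of all genes 13.3% rose in senescence, 11.2% fell after METTL3 knockdown, and 9.15% rose and 12% fell after METTL14 knockdown. Between the knockdowns 16.5% of all genes were higher and 18.7% lower. The median log2 difference between the knockdowns was 0.36 for mitochondrial ribosomal proteins and 0.04 for the proteasome, beside 0.48 for the respiratory chain. No test of the difference between families was made.

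**Figure D4:**
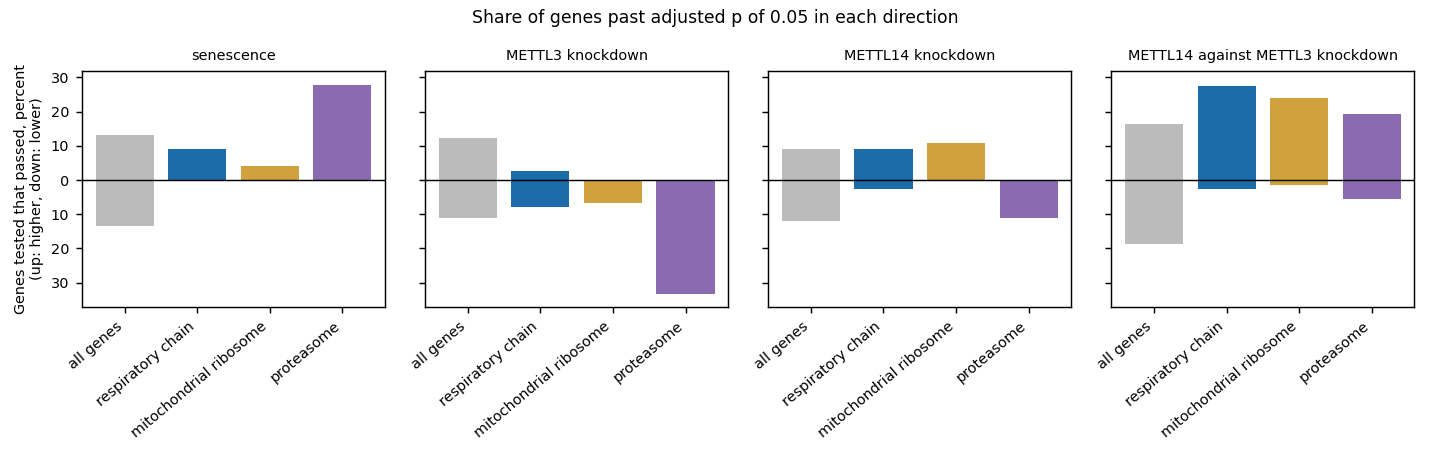
Percent of tested genes (y axis) past an adjusted p of 0.05, upward bars for higher and downward bars for lower, for all genes, the respiratory chain, the mitochondrial ribosome and the proteasome (x axis) in the 4 comparisons. Between the knockdowns the respiratory chain bar reaches 27.6% upward against 16.5% of all genes. Counts are under TMM scaling, and total library size gave 5 members higher and 5 lower, with 36.3% of all genes called.

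Complex II and the cytochromes c and c1, which the naming rule leaves out, passed in every case between the knockdowns. In this comparison 35.2% of all genes passed. SDHA, the flavoprotein of succinate dehydrogenase, had 80 and 70 raw counts in shMETTL3 and 213 and 149 in shMETTL14 cells (log2 difference 1.32 ± 0.19). SDHB (1.08 ± 0.24), SDHD (1.49 ± 0.39), CYC1 (1.45 ± 0.29) and CYCS (1.07 ± 0.22) were higher in shMETTL14 cells too, and SDHC was lower (-0.71 ± 0.25, and -0.47 without shMETTL14 replicate 1, which did not pass). After METTL3 knockdown SDHA, SDHB, SDHD and CYCS fell, by 0.86 ± 0.20, 0.79 ± 0.25, 1.30 ± 0.40 and 0.95 ± 0.23 on the log2 scale. Of all genes 11.2% fell. The log2 fold change of SDHD was -0.87 without shMETTL3 replicate 1, which did not pass, and -2.03 without replicate 2. SDHD also lost its call without either shControl library. SDHA and SDHB lost their calls without shControl replicate 2, and SDHB also without shControl replicate 1 or shMETTL3 replicate 2. CYCS alone rose in senescence (0.74 ± 0.22) and CYC1 alone after METTL14 knockdown (0.84 ± 0.28), and both lost these calls without either shControl library.

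Assembly factors help to build the complexes without being part of them. Of 46 tested, 2 rose and 3 fell in senescence, 5 rose and 2 fell after METTL3 knockdown, 6 rose and 1 fell after METTL14 knockdown, and 5 were higher and 5 lower between the knockdowns. These were 10.9%, 15.2%, 15.2% and 21.7% of them, below the 26.6%, 23.4%, 21.2% and 35.2% of all genes called. NDUFAF7, a methyltransferase needed for complex I assembly, rose in senescence (log2 fold change 1.58 ± 0.17) and fell after METTL14 knockdown (-1.03 ± 0.17). NDUFAF6, a complex I assembly factor, fell in senescence (-0.61 ± 0.17) and rose after METTL14 knockdown (0.55 ± 0.17, and 0.30 without shMETTL14 replicate 2, which did not pass). It also rose after METTL3 knockdown, with an edgeR adjusted p of 3.79e-07. COA1, an assembly factor of complexes I and IV, rose after METTL3 knockdown (0.82 ± 0.14). COX15, which makes heme a for complex IV, rose in senescence (0.65 ± 0.17) and after METTL14 knockdown (0.54 ± 0.16), calls that both were lost without shControl replicate 1. The fall of NDUFAF6 was lost without either shControl library.

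Of 16 known regulators of these genes, 6 rose and 1 fell in senescence. PPARGC1A, a coactivator of mitochondrial genes, rose (1.35 ± 0.24), as did HIF1A (1.45 ± 0.14) and MYC (0.99 ± 0.26), while EPAS1 fell (-1.46 ± 0.15). After METTL3 knockdown 2 rose, PPARGC1A (0.78 ± 0.19) and TFB1M (0.97 ± 0.16), and 2 fell, ESRRA (-1.17 ± 0.36) and YY1 (-0.99 ± 0.21). After METTL14 knockdown 4 rose and 2 fell. GABPB1, which encodes a partner of the ETS protein GABPA, was among those that rose (0.84 ± 0.20), and PPARGC1B rose most (1.87 ± 0.48). Between the knockdowns 7 were higher in shMETTL14 cells and 4 lower, with ESRRA (1.84 ± 0.33), POLRMT (1.56 ± 0.33) and PPRC1 (1.10 ± 0.22) among the former and TFB1M (-1.53 ± 0.17) among the latter. Without shMETTL3 replicate 2 the difference of POLRMT was 0.88, and without replicate 1 it was 2.85. PPARGC1B lost its call after METTL14 knockdown without either shControl library or shMETTL14 replicate 1, MYC its call in senescence without control replicate 2 or shControl replicate 2, and PPARGC1A its call after METTL3 knockdown without shControl replicate 2. Without shControl replicate 1, ESRRA did not pass after METTL3 knockdown, nor GABPB1 after METTL14 knockdown. The shares of the 16 called were 43.8% in senescence, 25% after METTL3 knockdown, 37.5% after METTL14 knockdown and 68.8% between the knockdowns. Of all genes 26.6%, 23.4%, 21.2% and 35.2% were called. Whether these regulators act on the members was not tested.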

How the data were processed

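The authors aligned fastGRO-seq reads to hg19 and counted them over whole gene bodies with HOMER. The submitters' processing notes also name STAR and deepTools 3.3. The deposited values are raw counts per gene for 8 libraries, with replicates apart, and the authors also give each gene's span. The authors' Drosophila spike-in was not used here, nor were their other assays. Respiratory chain genes were selected by symbol and biotype, and these members, the gene lists and the promoters shown were chosen with earlier results of these data known.

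Counts of all 8 libraries were filtered with filterByExpr (minimum count 10), normalized by TMM and fitted in a single quasi-likelihood model in edgeR 4.0.16 (R 4.3.3). Contrasts between groups were called at a Benjamini-Hochberg adjusted p below 0.05 over 12844 genes. The model was tested on simulated data. Genes named are the core subunits, the isoform groups, METTL3, METTL14, list genes past the threshold, and up to 6 rises and 6 falls per comparison among called members with a mean of at least 50 counts. ATP5IF1, ATP5F1E, COX7C, UQCRQ, others named to complete a count, the promoters' genes and the members ranked per kilobase were named after their values were seen. Alternatives were DESeq2 1.42.0, other scalings and filters, a replicate block, a gene length offset, stricter thresholds and leaving out each library. Library totals were 14897360 to 20306299 counts. The p-values of the main fit rest on the spread between replicate libraries, estimated jointly over the 4 groups of 2 libraries each. The values of 1 member are not reported here.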

Additional observations from a re-analysis of the deposited data

How the results depend on the processing

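Counts of members past the threshold in senescence, METTL3 knockdown, METTL14 knockdown and METTL14 against METTL3 knockdown were 7 higher and 0 lower, 2 and 6, 7 and 2, and 21 and 2. The settings that moved a count by over 1.5 times follow. DESeq2 gave 4 higher in senescence, 0 and 2 after METTL3 knockdown, 3 and 0 after METTL14 knockdown and 6 and 0 between the knockdowns. It called 16.7%, 14%, 12.6% and 22.7% of all genes in these comparisons. Library size alone gave 0 and 8, 16 and 0, 19 and 0, and 5 and 5, with the median of all genes at -0.53, 0.58, 0.35 and -0.25. The shares of all genes called were 44.9%, 43.9%, 30.1% and 36.3%. A gene length offset gave 2 lower after METTL3 knockdown and 9 and 6 between the knockdowns, with 19.5% and 31.5% of all genes called. Fits of the 2 groups alone gave 17 higher in senescence, 0 higher after METTL3 knockdown and 0 lower between the knockdowns. They called 37%, 20.5% and 30.9% of all genes. Upper quartile scaling and at least 10 counts in every library each gave 1 higher after METTL3 knockdown and 1 lower between the knockdowns, and no filter gave 0 and 1. An adjusted p below 0.01 gave 0 and 2 after METTL3 knockdown, 3 and 0 after METTL14 knockdown and 9 and 0 between the knockdowns. A log2 fold change of at least 1 gave 2 higher in senescence, 0 and 0 after each knockdown, and 4 and 0 between them. Members with under 5% overlap, an alternative chosen after seeing the data, gave 1 higher after METTL3 knockdown, 4 higher after METTL14 knockdown and 1 lower between the knockdowns. Apart from fewer samples or genes in a fit, the cause was not tested.

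Leaving out each library gave 4 to 13 higher and 0 lower in senescence, 0 to 2 higher and 1 to 13 lower after METTL3 knockdown, 2 to 8 higher and 0 to 3 lower after METTL14 knockdown, and 4 to 23 higher and 0 to 4 lower between the knockdowns. Replicate numbers name libraries only: deviations of same-numbered libraries correlated at -0.04 to 0.10 across 12844 genes. With the replicate block the counts were 7 and 0, 2 and 8, 7 and 2, and 20 and 2. Of 6637 single values under the alternatives 5899 kept their side of the threshold, 564 lost the call, 122 gained one and 49 sums moved. Of the 6457 fold changes among them 237 changed sign, 90 of these with library size alone. The 3 that did so past the threshold were all with library size alone: COA1 in senescence (-0.48) and UQCRC2 (0.51) and NDUFA10 (0.58) after METTL3 knockdown. Most members had under 150 counts per library, which limits what can be called.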
